A study of Arabidopsis thaliana with 10 samples.

Results

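The difference between 35S:PAP1 and empty vector leaves in bright light was followed on 6 of the 10 arrays of the series. They were chosen by their labels, as the arrays marked Pap or Hex on days 1, 8 and 12, and were compared by day as 3 pairs. In 35S:PAP1 plants of Arabidopsis thaliana (Columbia), the constitutive 35S viral promoter drives PAP1, and the control plants carry an empty vector. The label Hex was taken to mean the empty vector, since Pap is the only other label and the series has these lines alone. The labels give a day and no growth regime. By the design text day 1 fell under 22 °C and days 8 and 12 under 15 °C, both with light of 440 µmol m-2 s-1. Days 2 and 7 fell under a warm dim regime, with 30 °C in the daytime and light of 150 µmol m-2 s-1. The 15 °C plants were therefore older than the day 1 plants and had passed through the warm dim period, so temperature, age and history cannot be told apart.

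PAP1 is a MYB transcription factor. With bHLH partners and a WD-repeat protein it switches on the late steps of the anthocyanin pathway, which reduce, glycosylate and acylate flavonoid intermediates into red pigments stored in the vacuole. Bright light and cold also raise these genes in ordinary Arabidopsis leaves.

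Each array was hybridised with RNA from pooled leaf tissue, and there was 1 array per line on a day. No label names separate plants or cultures, so the spread below is that between days and can include technical error. Values are the deposited log2 RMA expression values of 22746 probe sets, which carry 1 decimal. On the 6 arrays the medians lay at 5.5 to 5.6, and the correlation between lines was 0.990 on day 1, 0.991 on day 8 and 0.988 on day 12. The poly-A spike-in median was 5.2 to 5.6 in the empty vector and 4.95 to 5.25 in 35S:PAP1. The 5′ minus 3′ difference of actin, a measure of RNA breakdown, was -1.4 to -1.3 in the empty vector and -1.4 to -1.2 in 35S:PAP1. On the 35S:PAP1 array of day 1, 25S ribosomal RNA read 6.7, against 4.7 to 5.6 on the other 5 arrays, and its poly-A spike-in median was 5 against 5.6 in its pair. Every day 1 difference and every change from 22 °C uses that array, and the part of these readings in them was not tested. Of the 8 planned leaf markers 2 could be read, LHCB4.1 and LHCB4.2, and these lay between 9.6 and 13.5. The 3 readable root markers summed to 11.5 to 12.3 in the empty vector and 12 to 12.1 in 35S:PAP1, and BAN, a seed coat gene, read 3.3 to 3.7. The senescence gene SAG101 read 5.4 to 7.1 in the empty vector and 4.9 to 6.4 in 35S:PAP1. No marker of flowers or trichomes could be read. The files have no detection call, and the highest reading of EXPA7, EXPA18 and BAN, 4.1, was taken after seeing the data as the level below which a value only bounds a difference. PYK10, the other readable root marker, read 4.1 to 4.5 on the 6 arrays and was not used for this limit. Values up to 4.5 that are given below as measured may therefore also be bounds. Neither the number of transgenic lines behind the samples nor plant age was given in the labels. The PAP1 transcript itself had no probe set naming it alone and gave no check of the labels.

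The question of which transcripts separated the lines in bright light was asked of all probe sets together. DFR, an anthocyanin gene, stood furthest apart of all probe sets in mean difference, by 7.8 log2 units on day 1, yet no probe set passed the test. With day as a block, limma called 0 of 22746 probe sets higher (0%) and 0 lower (0%) at an adjusted p of 0.05. The smallest adjusted p was 0.402, and 1272 probe sets (5.59%) had an unadjusted p under 0.05. An exact test of 3 pairs cannot go below p = 0.25 two-sided, so single values were not tested that way. The differences below are therefore given as values, and none is a call.

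By size and agreement between days, 30 probe sets (0.132%) were higher in 35S:PAP1 by at least 1 log2 unit on all 3 days, and 1 (0.0044%) was lower. Near the limit, 4 probe sets had a smallest daily difference of 1 and 5 had one of 0.9. Of the 30, 14 have 1 gene in the probe table, 1 has several genes and the table leaves 15 unlisted. Among the named ones were the 5 late anthocyanin genes that could be read, of 11 planned. Their median difference was 6.5, 3.7 and 4.3 on days 1, 8 and 12, against a median of 0 over all probe sets on each day.

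DFR (AT5G42800), dihydroflavonol reductase, makes the leucoanthocyanidins from which anthocyanins and tannins derive. It read 12.4, 12.6 and 11.6 in 35S:PAP1 on days 1, 8 and 12, and 4.6, 8.0 and 7.1 in the empty vector. Every 35S:PAP1 array lay above every empty vector array. The mean difference was 5.63 ± 1.88 (SD, n = 3 days), or 49.6-fold, with adjusted p = 0.699 by limma.

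AT4G14090, the anthocyanin 5-O-glucosyltransferase, read 12.1, 11.8 and 11.5 in 35S:PAP1, against 5.3, 8.1 and 7.2 in the empty vector. UF3GT (AT5G54060), which adds xylose to the anthocyanin, read 11.8, 11.8 and 11.1 against 5.3, 8.1 and 6.6. In both genes the 35S:PAP1 values kept within 0.7 of each other while the empty vector was lowest on day 1 and highest on day 8. Their mean differences were 4.93 ± 1.64 and 4.90 ± 1.44 (SD, n = 3 days).

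AT5MAT (AT3G29590), which adds a malonyl group to anthocyanins, read 9.5, 10.2 and 8.8 in 35S:PAP1, against 3.8, 7.0 and 4.8 in the empty vector. Its day 1 value in the empty vector is below 4.1, so the mean difference was at least 4.3 ± 1.28 (SD, n = 3 days). UGT78D2 (AT5G17050), which glucosylates both flavonols and anthocyanins at the 3 position, read 10.7, 11.4 and 9.9 against 7.1, 10 and 7.3. For UGT78D2 the groups overlapped, because the empty vector on day 8 read above 35S:PAP1 on day 12, and the mean difference was 2.53 ± 1.1. Over all probe sets, 455 (2%) had every 35S:PAP1 array above every empty vector array and 135 (0.594%) had every one below, and 4 of the 5 late pathway genes were among the former.

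**Figure D1:**
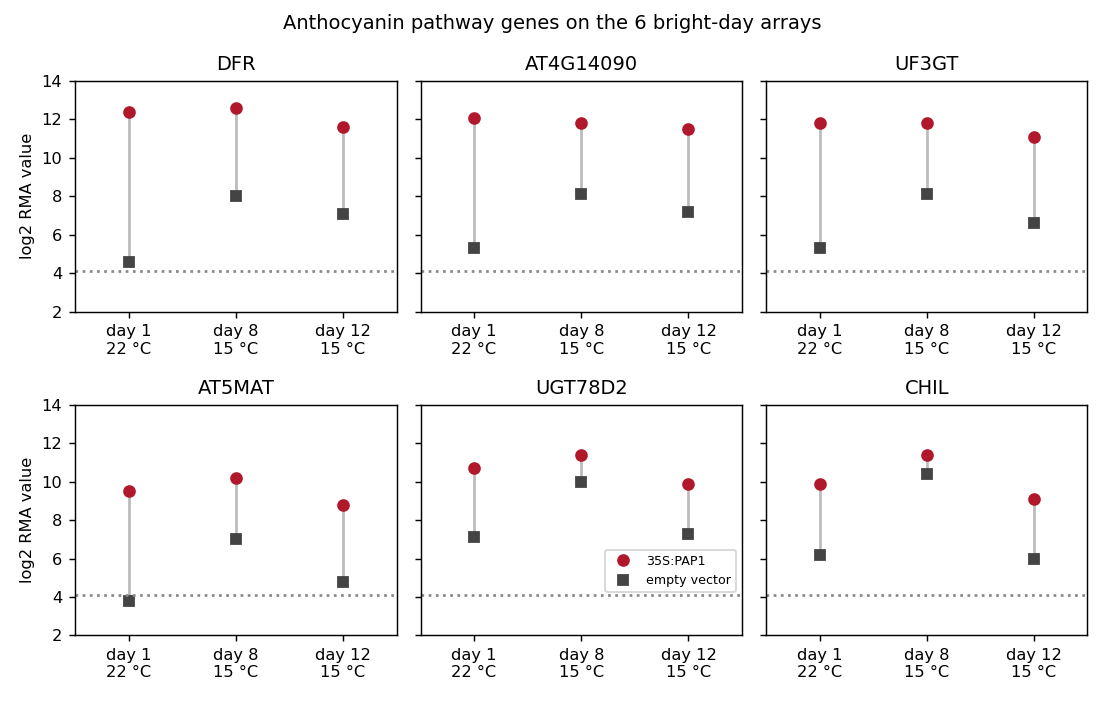
Log2 RMA values (vertical axis) of 6 pathway genes on the bright days (horizontal axis), with 1 array per point: circles are 35S:PAP1, squares the empty vector, grey lines join the arrays of a day and the dotted line is the 4.1 limit. The 35S:PAP1 values of DFR lie between 11.6 and 12.6 on all 3 days, while the empty vector reads 4.6 on day 1 and 8.0 and 7.1 on days 8 and 12.

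Upstream of these enzymes, CHIL (AT5G05270), a chalcone isomerase-like protein that raises flux through the first flavonoid steps, was the only readable early gene of 6 planned. It read 9.9, 11.4 and 9.1 in 35S:PAP1, against 6.2, 10.4 and 6.0 in the empty vector. Both lines were highest on day 8, where they stood closest, and the mean difference was 2.60 ± 1.42 (SD, n = 3 days).

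The flavonol branch, which makes colourless sunscreens from the same precursors, had no readable member with 1 sign on all 3 days. UGT78D1 (AT1G30530), a flavonol rhamnosyltransferase, differed by 0.4, -0.1 and 0.4 on days 1, 8 and 12, and AT1G06000, the flavonol 7-O-rhamnosyltransferase, by 0.7, -0.2 and -0.3. UGT78D3, a flavonol arabinosyltransferase, differed by -0.4 on day 8 and was below 4.1 in both lines on days 1 and 12. Of these 3 flavonol genes (6 planned), 0 were above the empty vector on all 3 days, where 9.74% of all probe sets were higher and 5.5% lower throughout.

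Few regulators could be read. ATMYC1, a bHLH relative of the anthocyanin partners, differed by 0.4, 0.1 and -0.2, with all 6 values at or below 4.1. TRY, a small MYB that blocks such complexes, differed by -0.3, -0.2 and -0.1. HYH (AT3G17609), a bZIP factor of light signalling, read 4.4, 6.4 and 4.3 in 35S:PAP1, against 4.4, 7.2 and 5.0 in the empty vector. It was lower in 35S:PAP1 by 0.8 and 0.7 on the cool days. The day 1 values of both lines and the day 12 value of 35S:PAP1 lay within the range of PYK10, so they may be bounds. BAN, anthocyanidin reductase of the tannin branch, stayed at 3.3 to 3.7 in both lines.

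Outside flavonoid metabolism, 8 named genes were higher by at least 1 log2 unit on all 3 days. AT1G09500 read 8.4, 8.2 and 7.7 in 35S:PAP1, against 5.8, 6.1 and 6.7 in the empty vector, a mean difference of 1.90 ± 0.82 (SD, n = 3 days). Its values in the lines drew together from day to day but did not overlap. AT4G04750, of the sugar transporter family, read 7.4, 7.8 and 6.7 against 5.4, 6.7 and 4.7, with a mean difference of 1.70 ± 0.52 and groups that met at 6.7.

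In a further set the empty vector gave only bounds on every bright day. AT3G44970 read 5.1, 5.1 and 5.5 in 35S:PAP1, against 3.7, 3.3 and 3.5 in the empty vector, so its mean difference was at least 1.73 ± 0.31 (SD, n = 3 days). AT3G47050 read 5.4, 5.7 and 5.3 against 4.0, 3.8 and 4.0, at least 1.53 ± 0.32. AT5G59940 read 5.2, 5.4 and 5.1 against 4.0, 4.0 and 3.7, at least 1.33 ± 0.12. In these 3 genes every empty vector array read 4.1 or less and every 35S:PAP1 array lay above 5. They passed under limma's trended robust prior alone, with adjusted p of 0.0175, 0.033 and 0.0237, and not under the other alternatives.

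AT3G28840 read 5.8, 6.6 and 6.0 in 35S:PAP1, against 4.7, 4.7 and 4.5 in the empty vector (mean difference 1.5 ± 0.40). EXPA9, an expansin that loosens cell walls, differed by 1.1, 1.6 and 1.0. AT1G20490 differed by at least 1.4, 1.0 and 1.0. The only probe set lower on all 3 days was that of AT2G44240, which read 4.7, 3.8 and 8.3 in 35S:PAP1, against 6.0, 5.5 and 10 in the empty vector. Both lines were highest on day 12 for AT2G44240, and its mean difference was -1.57 ± 0.23, a bound on day 8. Under the same trended robust prior its adjusted p by limma was 0.0227. The adjusted p was 0.699 by limma for each of the 15 named genes that stood at least 1 log2 unit apart on all 3 days.

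Of the 30 probe sets higher on all 3 bright days, 22 were also higher by at least 1 log2 unit on both warm dim days, 2 and 7. DFR differed by 6.3 on day 2 and by at least 8.6 on day 7, where the empty vector read 3.8. AT3G28840 differed by 0.4 and 0.5, with the empty vector at 4.2 and 4.3, and EXPA9 by -0.6 and 0.5. AT3G44970 and AT2G44240 read below 4.1 in both lines on those days, so a difference could not be read there. A test of the bright minus dim difference, added after seeing the data and run over all probe sets, called 0 (0%) by limma, with 2052 at an unadjusted p under 0.05. AT3G28840 and EXPA9 each had adjusted p = 0.461 by limma and were not shown to be limited to bright days. The 35S:PAP1 array of day 2 stood apart in RNA measures, with an actin 5′ minus 3′ difference of -2.5 against -1.5 to -1.2 on the other 9 arrays, and a 25S ribosomal RNA reading of 9.7 against 4.7 to 6.7. Its part in these dim values was not tested, nor was that of the low poly-A spike-in median of day 7, 3.25 in both lines.

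**Figure D2:**
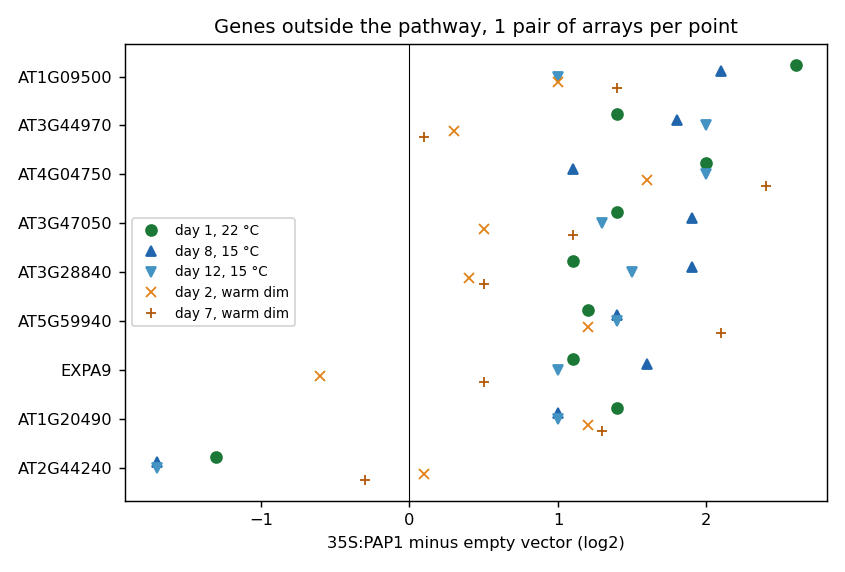
Difference between 35S:PAP1 and the empty vector in log2 units (horizontal axis) for the 9 named genes outside the pathway that stood at least 1 log2 unit apart on all 3 bright days, with 1 pair of arrays per point and the warm dim days beside them. AT3G28840 lies at 1.1 to 1.9 on bright days and at 0.4 and 0.5 on the dim ones. Points of AT3G44970, AT3G47050, AT5G59940 and AT1G20490 on bright days are lower bounds, and the day 8 point of AT2G44240 is also a bound. The dim points of AT5G59940 and AT1G20490 and the day 7 point of AT3G47050 are lower bounds too. The dim points of AT3G44970 and AT2G44240 and the day 2 point of AT3G47050 have both lines at or below 4.1.

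The probe sets without a single gene name held as many of the large differences. The probe set that the table assigns to several genes read 11.3, 11.6 and 11 in 35S:PAP1, against 3.6, 7.7 and 5.9 in the empty vector. The unlisted one with the greatest mean difference read 12.2, 12.7 and 11.4 against 5.3, 8.5 and 7.6. Both followed the course of DFR, with the empty vector lowest on day 1 and 35S:PAP1 high on every day. A further unlisted one differed by at least 3.7 on day 1, by 3.8 on day 8 and by at least 3.4 on day 12, and had the smallest adjusted p by limma, 0.402. The mean differences of the 15 unlisted ones ran from 1.43 to 4.97 with a median of 2.5, against 1.13 to 5.63 with a median of 1.82 for the 14 that name 1 gene. Unlisted probe sets passed the limit on all 3 days at a rate of 0.172%, those naming 1 gene at 0.104% and those naming several at 0.199%, which is 1 of 503.

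CCOAMT (AT1G67980), a caffeoyl-CoA methyltransferase, read 6.1, 3.8 and 7.6 in 35S:PAP1, against 6.8, 4.6 and 8.2 in the empty vector, so that it was lower by 0.7, 0.8 and 0.6, with day 8 a bound. HCT, an acyltransferase on the way to lignin, differed by 0.1, 0.2 and 0.1, and ALDH2C4, an aldehyde dehydrogenase of ferulate and sinapate synthesis, by -0.1, -0.3 and -0.1. UGT84A1, a sinapate glucosyltransferase, differed by -0.7 on day 8 and was below 4.1 in both lines on days 1 and 12. Of these 4 lignin and sinapate genes, of 14 planned, 2 were below the empty vector on all 3 days and 1 was above. Over all probe sets 5.5% were lower and 9.74% higher on all 3 days.

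Class III peroxidases, which oxidise wall phenolics, included 2 of 6 measured members below the empty vector on all 3 days, where 5.5% of all probe sets were lower. Prx37 (AT4G08770) differed by -0.5, -0.6 and -0.6, with day 8 a bound. PRX52 (AT5G05340), which acts in lignin formation, read 4.6, 4.6 and 6.2 in 35S:PAP1, against 6.3, 5.7 and 6.7 in the empty vector, a gap that was widest on day 1. AT5G64120 went both ways, at 0.9, -1.4 and -0.9. AT1G14550 and AT5G39580 were at or below 4.1 on all 6 arrays and AT4G08780 on 5 of them, so no median of the list is given.

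In the defence list 2 of 3 readable members were below the empty vector on all 3 days, where 5.5% of all probe sets were lower. The lists were chosen with earlier results of these data known, and their counts were not tested. CML41 (AT3G50770), a calmodulin-like protein, read 7.1, 5.2 and 7.2 in 35S:PAP1, against 7.8, 6.4 and 8.2 in the empty vector. PDF1.2b, a jasmonate-induced defensin whose probe set may bind relatives, differed by -2.1, -1.0 and -0.3, and PDF1.2 (AT5G44420) by -1.2, -1.1 and 0.1. Both defensins were lowest on day 8 in each line, at 4.5 to 5.7. In tissue RNA of this kind, fewer cells of a type and less RNA per cell cannot be told apart.

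The number and direction of differences varied by day. On day 1 at 22 °C, 179 probe sets (0.787%) were higher in 35S:PAP1 by at least 1 log2 unit and 57 (0.251%) lower. On day 8 at 15 °C there were 94 higher (0.413%) and 149 lower (0.655%), and on day 12 there were 116 higher (0.51%) and 395 lower (1.74%). Differences to the high side thus made up 75.8%, 38.7% and 22.7% of those past the limit on the 3 days. With each array centred on its median the day 8 share became 52.2% (129 higher, 118 lower), as the median difference moved by 0.1, so which direction prevailed on day 8 depends on the scaling. The day 1 and day 12 counts did not move with this centring. After a further quantile normalisation the higher and lower counts were 139 and 57 on day 1, 91 and 133 on day 8, and 90 and 384 on day 12. The 30 probe sets higher on all 3 days became 31 with centring and 26 after that normalisation. Each count rests on 1 array per line.

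By type of probe set, the day 1 counts were 67 higher and 29 lower among those naming 1 gene, 4 and 1 among those naming several, and 108 and 27 among the unlisted. On day 12 they were 46 and 195, 2 and 10, and 68 and 190. The reversal from mostly higher to mostly lower was thus seen in those naming 1 gene and in the unlisted. Those naming several went the same way, but are too few past the limit to show it separately.

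**Figure D3:**
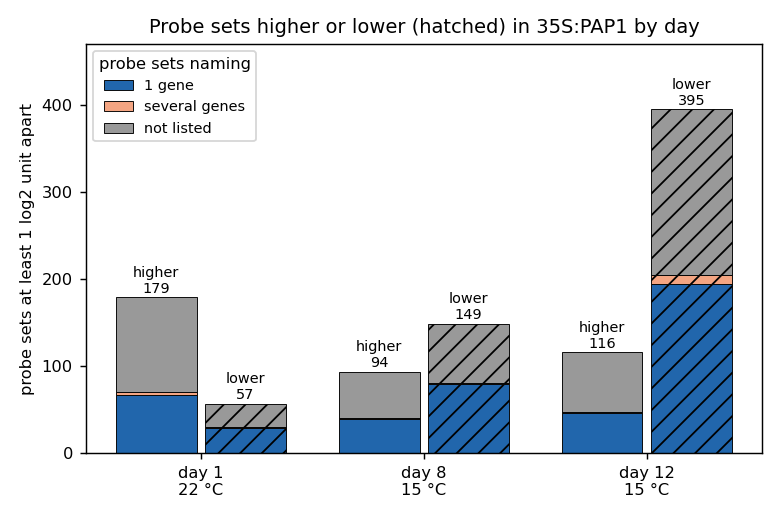
Number of probe sets at least 1 log2 unit apart (vertical axis) on each bright day (horizontal axis), with plain bars for those higher and hatched bars for those lower in 35S:PAP1 and colours for how the probe table names them. Higher ones number 179 on day 1 against 57 lower, and 116 on day 12 against 395 lower.

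The days shared only part of these probe sets. Of the 179 higher on day 1, 45 were also higher on day 8 (25.1% of the day 1 and 47.9% of the day 8 set) and 40 on day 12 (22.3% and 34.5%). Of those lower, days 8 and 12 shared 20, which is 13.4% of the day 8 and 5.06% of the day 12 set, and days 1 and 12 shared 5. Across all 22746 probe sets the differences of days 1 and 8 correlated at 0.187, those of days 8 and 12 at 0.207 and those of days 1 and 12 at -0.0163. These are descriptions across probe sets, which are not independent, and the days share no arrays.

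How the line difference moved from 22 °C to 15 °C was asked by setting the mean of days 8 and 12 against day 1. The anthocyanin genes stood closer together at 15 °C, and in the mean of both cool days most of that lay in the empty vector. By limma 0 of 22746 probe sets (0%) passed in either direction, with 1875 (8.24%) at an unadjusted p under 0.05 and a smallest adjusted p of 0.487. This fit has 1 residual degree of freedom and assumes that the single day 1 pair varies like the cool pairs.

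The difference of DFR was 7.8 on day 1 and 4.6 and 4.5 on days 8 and 12, a change of -3.25 (adjusted p = 0.487 by limma). Within the lines, the mean of days 8 and 12 minus day 1 was 2.95 in the empty vector and -0.30 in 35S:PAP1. The same contrast was 2.35 and -0.45 for AT4G14090, 2.05 and -0.35 for UF3GT, 2.1 and 0 for AT5MAT, and 1.55 and -0.05 for UGT78D2. For CHIL it was 2 and 0.35, but CHIL in the empty vector read 6.0 on day 12 and 6.2 on day 1, so day 8 alone carried its mean.

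Set out by day, the empty vector values of all 5 late genes were highest on day 8 and lower on day 12. On day 12 they were still above day 1, by 2.5 for DFR, 1.9 for AT4G14090, 1.3 for UF3GT, 1.0 for AT5MAT and 0.2 for UGT78D2. In 35S:PAP1 the day 12 values were below day 1, by 0.8 for DFR, 0.6 for AT4G14090, 0.7 for UF3GT, 0.7 for AT5MAT and 0.8 for UGT78D2. By day 12, UGT78D2 had thus moved further in 35S:PAP1 than in the empty vector, and the narrowing of CHIL lay in 35S:PAP1, which read 0.8 lower. The median change of the line difference over these 5 genes was -2.40, made of 2.1 in the empty vector and -0.30 in 35S:PAP1, against 0 for each over all probe sets. The AT5MAT change is a bound, since its empty vector value on day 1 is below 4.1.

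Of the 30 probe sets higher on all 3 days, 16 had a smaller difference on both cool days than on day 1, 7 a larger one on both, and 7 neither. In 5 of them the 3 daily differences stayed within 0.5 of each other, and in 11 they spanned more than 2. Of the 30, 10 have an empty vector value at or below 4.1, so their daily differences are partly bounds and these counts describe the deposited values.

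**Figure D4:**
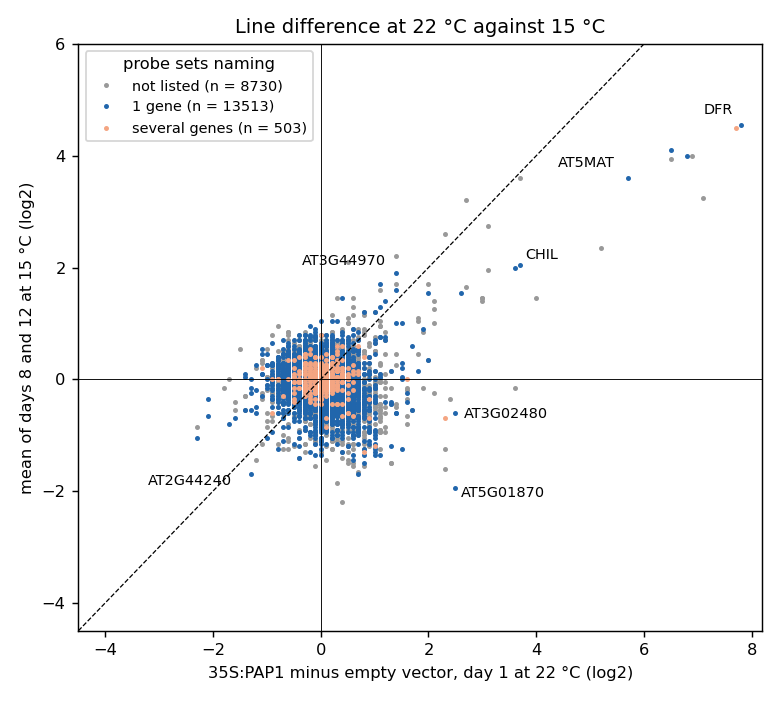
Line difference on day 1 at 22 °C (horizontal axis, log2) against the mean difference on days 8 and 12 at 15 °C (vertical axis, log2) for all 22746 probe sets, coloured by how the probe table names them, with a dashed line of equality. DFR lies below the line at 7.8 and 4.55, and AT5G01870 at 2.5 and -1.95.

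Over all probe sets, 209 (0.919%) had a line difference at least 1 log2 unit lower on both cool days than on day 1, and 54 (0.237%) at least 1 higher. Both counts use the same day 1 pair, so that a deviation of that pair enters each cool day alike. Of the 209, 93 name 1 gene, 6 several and 110 are unlisted, and of the 54 the numbers are 32, 0 and 22.

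The largest downward change outside the pathway was that of AT5G01870, a lipid transfer protein gene. It read 9.1, 4.5 and 7.1 in 35S:PAP1, against 6.6, 8.3 and 7.2 in the empty vector, a change of -4.45 carried mainly by day 8. AT2G43620, of the chitinase family, read 8.9, 5.7 and 6.7 in 35S:PAP1 and kept to 7.4, 7.7 and 7.2 in the empty vector. In both genes 35S:PAP1 was above the empty vector on day 1 and below it on both cool days.

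AT3G02480, of the late embryogenesis abundant family, read 6.8, 5.0 and 7.0 in 35S:PAP1, against 4.3, 5.7 and 7.5 in the empty vector. EXO (AT4G08950), a growth-related secreted protein, read 9.9, 8.2 and 8.8 against 8.6, 9.0 and 10.4, and AT3G19970 read 6.0, 6.6 and 6.4 against 4.9, 7.0 and 8.7. For AT3G02480 and AT3G19970 the empty vector was highest on day 12 and lowest on day 1. The 5 changes outside the pathway had adjusted p of 0.487 to 0.623 by limma.

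In the other direction, all 8 named genes read lower in 35S:PAP1 on day 1 and stood at least 1 log2 unit higher relative to that on both cool days. AT2G20870 read 4.4, 5.5 and 4.3 in 35S:PAP1, against 6.5, 5.5 and 5.0 in the empty vector. ZIP9 (AT4G33020), a zinc transporter, read 6.8, 6.8 and 4.9 against 7.9, 5.7 and 4.9, so that it was lower, higher and level in turn. The plastid genes psbD, which encodes the D2 protein of photosystem II, and ndhK, of the NADH dehydrogenase-like complex, differed by -1.1, 0.3 and 0.6 and by -1.4, 0.1 and 0.1. AT1G78450 differed by -0.9, 0.2 and 1.1, and AT1G13650 by -1.0, 0 and 0.9, with day 12 a bound. COR15B and PDF1.2b completed these 8 genes.

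**Figure D5:**
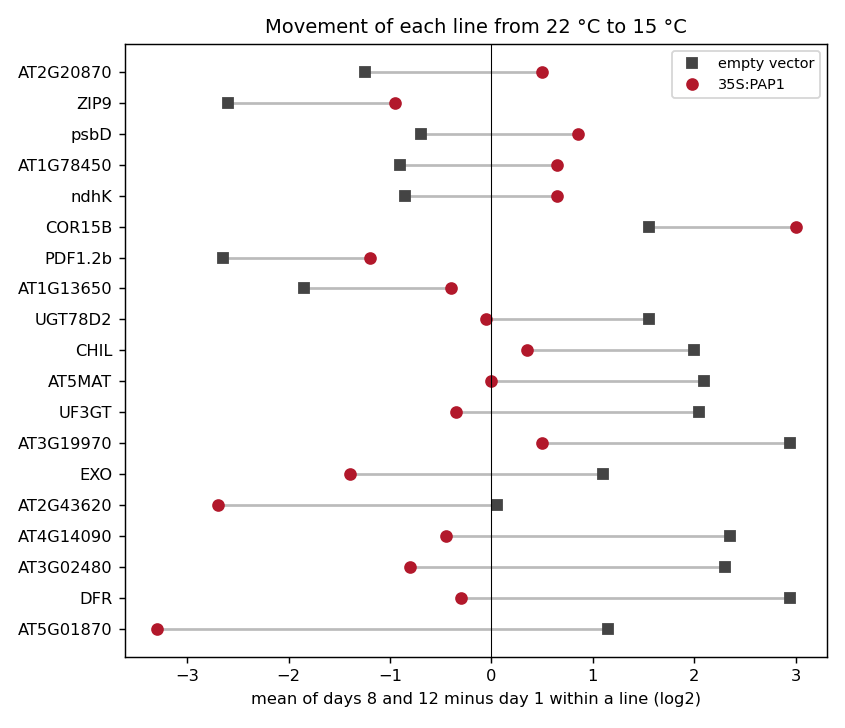
Mean of days 8 and 12 minus day 1 in log2 units (horizontal axis) within the empty vector (squares) and within 35S:PAP1 (circles) for the genes named for this change together with AT5MAT, CHIL and UGT78D2. DFR stands at 2.95 in the empty vector and -0.30 in 35S:PAP1, while AT5G01870 stands at 1.15 and -3.30.

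A distinct set crossed over between days 1 and 12, and was picked out after its values were seen. Of the 179 probe sets higher on day 1, 37 (20.7%) were lower by at least 1 log2 unit on day 12, where they made up 9.37% of the 395 lower ones. In the other direction, 4 of the 57 lower on day 1 were higher on day 12. On day 8, which the choice did not use, their median difference was -0.1. The choice fixes a gap of at least 2 log2 units between the movements of the lines from day 1 to day 12, and of this the medians were 2.60 in the empty vector and -0.40 in 35S:PAP1. On the warm dim day 7 their median difference was -2.0, and over all probe sets the differences of days 7 and 12 correlated at 0.520, more than any other pair of days. Both arrays of day 7 had a poly-A spike-in median of 3.25, against 4.4 to 5.6 on the other arrays. The line differences of day 7 had an SD of 0.533 over all probe sets, against 0.362 on day 12. The part of these readings in the day 7 values was not tested.

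The 37 hold 14 probe sets that name 1 gene. AT1G15010 read 8.0, 7.4 and 7.0 in 35S:PAP1, against 7.0, 7.4 and 9.7 in the empty vector. WRKY22 (AT4G01250), a transcription factor of innate immunity, read 6.0, 7.2 and 5.4 against 5.0, 7.1 and 7.4, and CML37 (AT5G42380), a calmodulin-like gene induced by wounding, read 7.5, 6.6 and 7.4 against 6.5, 7.3 and 9.3. EXO and AT3G19970 were also among them. In WRKY22 and AT1G15010 the lines were within 0.1 of each other on day 8, between opposite differences on days 1 and 12. The empty vector array of day 12 was the highest of the 6 for AT1G15010, WRKY22, CML37, EXO and AT3G19970.

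Many cold-regulated genes protect membranes and proteins during chilling. Of them, COR15A, COR15B, COR47 and LTI30 read higher on both cool days than on day 1 in each line. The other readable members, COR27 and AT4G33980, did so in 35S:PAP1 only. In the empty vector COR27 read 8.9, 8.3 and 8.4 on days 1, 8 and 12, and AT4G33980 8.1, 8.3 and 7.9. COR47 in the empty vector read 11.5 on both cool days, and 11.5 and 12.3 on the warm dim days 2 and 7. COR15A, COR15B and LTI30 read lower on the warm dim days than on the cool days in each line. COR15A (AT2G42540) read 8.9, 13.5 and 11.7 in 35S:PAP1, against 9.7, 13.3 and 11.4 in the empty vector, and COR15B read 8.4, 12.2 and 10.6 against 9.6, 12.2 and 10.1. On day 1 35S:PAP1 was lower for all 6 readable members of 15 planned, with a median of -0.45. These 6 values share 1 pair of arrays, which holds the 35S:PAP1 array with the high ribosomal RNA reading. The share of all probe sets lower on that day is not given, so the count has no background. On days 8 and 12 the median was 0.25 and 0.4, against 0 over all probe sets on each day. Of the 6, 0 kept a sign on all 3 days, where 9.74% of all probe sets were higher and 5.5% lower throughout. With 6 members, a count of 0 is near that share. COR27 differed by -0.5, 0.7 and 0.7 and AT4G33980, its relative COR28, by -0.4, 0.5 and 0.5, whereas LTI30 differed by -0.2, 0.1 and -0.6.

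The light harvesting and heat shock lists held 0 members with 1 sign on all 3 days. Over all probe sets, 9.74% were higher and 5.5% lower throughout. Each list had only 3 readable members, so a count of 0 is near that share. LHCB4.1 missed only through a difference of 0 on day 1. LHCB4.3, a minor antenna protein, differed by -0.2, 0.8 and 0.4, LHCB4.2 by -0.5, 0.1 and 0.2 and LHCB4.1 by 0, 0.2 and 0.1. Of the heat shock genes AT5G48570, a peptidyl-prolyl isomerase gene, differed by 0.8, -0.1 and 0, with day 8 below 4.1 in both lines, and HSA32 by 0.3 or less on each day. ATHSP22.0 was below 4.1 on all 6 arrays and could not be compared. The median of the light harvesting list was -0.2, 0.2 and 0.2.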

How the data were processed

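Leaf RNA was measured on Affymetrix arrays. The deposited values are log2 expression, summarised by RMA according to the submitters' processing notes. The version and settings of RMA were not given in the sources used here. RMA forces the arrays to a common distribution, so a shift of the whole transcriptome would not be seen. Arrays have no read depth, and their number limits the precision. The 64 control probe sets among 22810 were dropped. Of the 22746 tested, 13513 have 1 gene in the probe table (13436 found in the reference table through their Entrez number), 503 have several, and 8730 are unlisted there. Unused sample columns numbered 0.

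The genotype effect was estimated on 6 arrays with day blocked, leaving 2 residual degrees of freedom, by lmFit and eBayes of limma 3.58.1 under R 4.3.3, and the change on the 3 same-day differences (1 residual degree of freedom). The threshold was a Benjamini-Hochberg adjusted p of 0.05 over all probe sets. The scripts were tested on simulated data. The block follows the day in the labels. Both lines deviated together from their means on a given day, with r = 0.604 on day 1, 0.844 on day 8 and 0.685 on day 12.

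Members, lists and tests were chosen with earlier results of these data known. The 21 lists hold 150 genes, of which 42 had a probe set naming them alone, matched by locus. The lists for general phenylpropanoid enzymes and flavonol activators had none. Named genes are those passing the test, which were 0, then up to 12 per direction at least 1 log2 unit apart on all 3 days and up to 8 per direction whose difference moved by at least 1 on both cool days, by size. EXPA9 and AT1G20490, beyond that number, and AT1G15010, WRKY22 and CML37 were added after their values were seen. List members may also be named. The probe set with the highest mean stood for a gene. No promoter sequence was used here.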

Additional observations from a re-analysis of the deposited data

Results flagged for a closer look

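Of 56 named genes examined, 17 had a line difference of 1 sign on day 1 and of the opposite sign on both cool days. Over all probe sets 16.1% did so, and the day 1 sign rests on a single pair of arrays. Part of the 56 were named because their difference changed by at least 1 on both cool days. The count of 17 is thus partly fixed by that choice and cannot be set against the share of all probe sets. None of the 17 changes passed limma's test, with adjusted p of 0.487 to 0.623. Changes are the mean difference of days 8 and 12 minus that of day 1, in log2 units.

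The difference went from positive to negative in 8 genes. AT5G01870 gave -4.45, AT3G02480 -3.1, AT2G43620 -2.75, EXO -2.5 and AT3G19970 -2.45. The peroxidase gene AT5G64120 gave -2.05, AT1G06000 -0.95 and AT4G08780, a peroxidase gene, -0.75. AT4G08780 was below 4.1 in both lines on days 1 and 8, so its signs on those days cannot be read. The difference went from negative to positive in the others. The plastid gene psbD gave 1.55, AT1G78450 1.55 and ndhK 1.5, and the cold-regulated COR27 1.2, COR15A 1.05 and AT4G33980 0.9. The antenna genes LHCB4.3 and LHCB4.2 gave 0.8 and 0.65, and BAN, with all values below 4.1, gave 0.45.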

How the results depend on the processing

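The count of 0 for the genotype effect stood at 2, all higher, with the spread taken from all 10 arrays, at 1 after a further quantile normalisation, and at 8 (7 higher, 1 lower) with a trended robust prior. The cause was not tested. The 2 and the 1 are unlisted probe sets. The 8 hold 4 unlisted ones, AT3G44970 (limma adjusted p = 0.0175, range over its alternatives 0.0175 to 0.633), AT3G47050 (0.033, to 0.633), AT5G59940 (0.0237, to 0.633) and AT2G44240 (0.0227, to 1). Without the replicate block the count was 0, and it was 0 without day 1, 8 or 12, with a mean of at least 5 and with centred arrays; unadjusted p under 0.05 held for 273 to 1509 probe sets over the 9 alternatives. The change from 22 °C to 15 °C gave 0 by limma in all 8 alternatives run, that without the replicate block included, with 249 to 2825 at an unadjusted p under 0.05. It cannot be had without day 1. Without day 8 or 12, spread came from a fit that holds the dim pairs, and the lone pairs are assumed to vary alike.

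Of 49 genes for the difference and 56 for the change, none reversed under another scaling, filter, prior or fit. Leaving out days turned some small values. The difference ranged from -0.25 to 0.25 for AT1G06000, -0.15 to 0.15 for UGT78D3, -0.05 to 0.25 for ATMYC1, -0.35 to 0.1 for UGT84A1 and AT4G08780, -0.2 to 0.45 for AT5G39580, -0.3 to 0.25 for COR15A, -0.6 to 0.25 for COR15B, -0.05 to 0.2 for HSA32, -0.05 to 0.4 for AT5G48570 and -0.2 to 0.15 for LHCB4.2. The change ranged from -0.7 to 0.2 for UGT84A1, -0.1 to 0.6 for COR47, -0.4 to 0.3 for LTI30 and -0.1 to 0.5 for AT3G47050.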
